A study of Mus musculus with 4 samples.

Results

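The 10 genes described here encode antagonists and feedback targets of WNT signaling and nuclear partners of beta-catenin. They were Sfrp1, Sfrp2, Dkk2, Dkk3, Wif1, Axin2, Rnf43, Znrf3, Lef1 and Tcf7, chosen by name and found by symbol among the 38713 genes of the expression table. A total of 5 of the 10 passed the filter used for testing, which asked that 2 or more of the 4 libraries reach an FPKM of 1, as did 12998 genes in all. FPKM is the number of sequenced fragments scaled by transcript length and by the mapped fragments of the library, so levels of different genes can be compared on it.

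In the canonical WNT pathway, secreted WNT ligands bind Frizzled receptors and LRP co-receptors, and beta-catenin, which is otherwise degraded, accumulates and acts in the nucleus with proteins of the TCF/LEF family. Secreted frizzled-related proteins and WIF1 bind WNT ligands outside the cell, and the DKK proteins DKK1 and DKK2 bind the LRP co-receptors. Axin2, Rnf43, Znrf3, Lef1 and Tcf7 are widely known as genes that beta-catenin can activate. The pathway is known in the mammary gland for its part in the maintenance of basal stem cells, and mammary tumors of the mouse arise when it is overactive.

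RNA was sequenced from 4 cultured cell lines, each grown from a separate mammary tumor of a C57BL/6 mouse and each giving 1 library. The 2 JNK_WT lines (genotype p53-/-) came from mice in which Wap-Cre deleted floxed Trp53. The 2 JNK_KO lines (genotype p53-/- JNK-/-) came from mice in which Wap-Cre also deleted floxed Mapk8 and Mapk9, which encode the kinases JNK1 and JNK2. Wap-Cre is driven by the promoter of a milk protein gene and acts in the secretory epithelium of the mammary gland. All 4 lines, the JNK_WT lines included, are thus labelled as lacking p53, and a line stands for the cells of 1 tumor that grew in culture. JNK_WT libraries are numbered 1 and 2, JNK_KO libraries 1 and 3, and values are given in that order throughout, JNK_WT first. No time in culture, age or batch was given in the labels.

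FPKM summed to between 775960 and 921595 per library. Over the tested genes the upper quartile lay between 33.2 and 34.3 FPKM. Where low genes rest on single reads, their ratio between 2 libraries gives the relative depth, which by the commonest such ratio was 1.06 and 1.27 for the JNK_WT lines and 1.40 for JNK_KO replicate 3, with JNK_KO replicate 1 set to 1. The number of reads behind a value is unknown. Mapk8 stood at 23.9 and 19.1 FPKM in the JNK_WT lines and at 4.30 and 4.27 FPKM in the JNK_KO lines. Mapk9 stood at 29.7 and 24.3 FPKM against 12.6 and 8.66 FPKM. Both genes were lower in each JNK_KO line, as the labels have it, and neither was at 0 (limma adjusted p = 0.191 and 0.429). Trp53 was measured at 1.55, 4.15, 5.72 and 4.28 FPKM, so reads of the gene remained in every line. The luminal keratin gene Krt8 was at 278 to 1045 FPKM, and all 9 luminal markers examined passed the filter, which goes with an epithelial label. None of the 9 was called, 8 had a negative log2 difference of JNK_KO minus JNK_WT, and their median was -0.52. Krt8 and Epcam (360 and 630 FPKM in JNK_WT, 150.3 and 286 FPKM in JNK_KO) were lower in both JNK_KO lines than in both JNK_WT lines (limma adjusted p = 0.781 and 0.665), and the other 7 overlapped. Over all genes tested, 35.0% had groups that did not overlap. Basal and fibroblast markers also differed between lines and are given beside the results. The part of these markers in the results that follow was not tested.

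The question put to the data was whether the genes that restrain WNT signaling, and those that report it, differed between JNK_WT and JNK_KO tumor cells. With limma on log2(FPKM + 1), none of the 5 members tested passed an adjusted p under 0.05 with an absolute log2 difference over 0.75. Of the 12998 genes tested, 0% were called in this way. At an unadjusted p under 0.05 the count was 0 of 5 members and 7.63% of all genes. Only Axin2 exceeded 0.75 in absolute log2 difference, which 15.7% of all genes did. Axin2 was also the sole tested member whose JNK_WT and JNK_KO values did not overlap, which held for 35.0% of all genes. A count of 1 among 5 genes is too small to set apart from either share. With 2 lines against 2, the smallest p that an exact two-sided permutation test allows is 0.333.

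**Figure D1:**
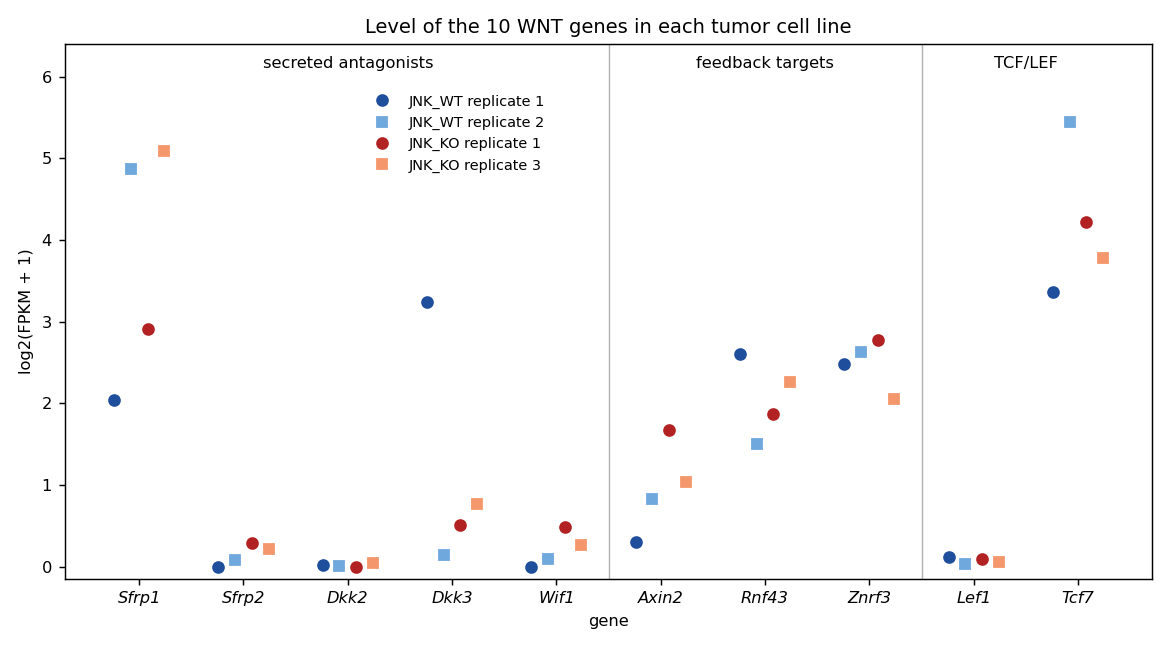
Level of the 10 genes in each tumor cell line as log2(FPKM + 1), 1 point per library, with JNK_WT lines in blue and JNK_KO lines in red and orange. Sfrp1 spread widely between lines within both genotypes, and Tcf7 and Dkk3 within JNK_WT only. Axin2 was the only one of the 5 tested genes whose genotypes did not overlap.

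Among the secreted antagonists, Sfrp1 was the one expressed in every line. It encodes a secreted frizzled-related protein and lies on chromosome 8 (GRCm38, 23411502 to 23449632, plus strand). Sfrp1 was measured at 3.11 and 28.3 FPKM in the JNK_WT lines and at 6.48 and 32.9 FPKM in the JNK_KO lines. Each genotype thus held a low and a high line, and the groups overlapped. The high line exceeded the low line 9.13-fold within JNK_WT and 5.08-fold within JNK_KO, whereas the group means were 15.7 ± 17.8 FPKM (SD, n = 2) and 19.7 ± 18.7 FPKM (SD, n = 2). The log2 difference of JNK_KO minus JNK_WT was 0.54 (SE 1.22), with a 95% interval of -2.72 to 3.80 and a limma adjusted p of 0.999. Its sign depended on single lines, at -0.88 without JNK_WT replicate 1 and 1.96 without JNK_WT replicate 2. Relative to all tested genes, Sfrp1 ranked at percentiles 19.4 and 70.5 in JNK_WT and 31.3 and 74.0 in JNK_KO.

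Some basal markers were high in the same lines as Sfrp1. The summed FPKM of the 8 basal markers was 26.1 and 734 in the JNK_WT lines against 38.3 and 376 in the JNK_KO lines. Krt14, a keratin of basal epithelium, was measured at 7.34, 443, 26.7 and 313 FPKM and made up most of that sum in all lines but JNK_WT replicate 1. Krt5, the usual keratin partner of Krt14, reached 61.9 FPKM in JNK_WT replicate 2 and was at most 0.205 FPKM in the other 3 lines. Krt17 (11.0, 202, 8.14 and 26.7 FPKM) and Trp63 (0.0706, 21.9, 1.16 and 6.58 FPKM) were likewise higher in JNK_WT replicate 2 and JNK_KO replicate 3 than in the other lines. The rest of the list ran otherwise. Acta2, a contractile marker, was at 7.36, 3.19, 1.70 and 29.0 FPKM, Cnn1 was at 2.24 FPKM in JNK_WT replicate 2 and at most 0.438 FPKM elsewhere, and Myh11 and Oxtr were under 1 FPKM in all lines. Elf5, a factor of luminal progenitors, was at 0.158, 12.4, 0.50 and 13.5 FPKM. The part of cell type in the level of Sfrp1 was not tested, and in these bulk libraries more cells of a type and more RNA per cell cannot be told apart.

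The other secreted members were at or near the lower end of measurement in most lines. Sfrp2 (chromosome 3, 83766321 to 83774316, plus strand) was listed at 0 and measured at 0.0545 FPKM in JNK_WT and at 0.217 and 0.160 FPKM in JNK_KO. Wif1 (chromosome 10, 121033960 to 121100650, plus strand), which encodes WNT inhibitory factor, was listed at 0 and measured at 0.0660 FPKM in JNK_WT and at 0.403 and 0.203 FPKM in JNK_KO. Both genes were above the JNK_WT lines in each JNK_KO line, but all values were under 1 FPKM and neither was tested. Dkk2 (chromosome 3, 132085292 to 132180304, plus strand) was measured at 0.0151 and 0.00855 FPKM in JNK_WT, listed at 0 in JNK_KO replicate 1 and measured at 0.0268 FPKM in JNK_KO replicate 3. Its groups overlapped.

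Dkk3 encodes a secreted protein of the DKK family that is known not to bind LRP co-receptors in the manner of DKK1. It lies on chromosome 7 (112116017 to 112159057, minus strand). Dkk3 was measured at 8.41 FPKM in JNK_WT replicate 1 and at 0.107 FPKM in JNK_WT replicate 2, a ratio of 78.6 within 1 genotype. The JNK_KO lines had 0.422 and 0.695 FPKM. A single line therefore carried nearly all the Dkk3 signal, the groups overlapped, and the gene was not tested because only that line reached 1 FPKM. JNK_WT replicate 1, the line with the most Dkk3, had the least Sfrp1.

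Within the SFRP family (Sfrp1, Sfrp2, Sfrp4, Sfrp5 and Frzb), Sfrp1 held between 96.4% and 99.6% of the summed FPKM in every line. Dkk3 held between 81.8% and 99.4% of the sum of Dkk1 to Dkk4, which itself was 8.47 FPKM in JNK_WT replicate 1 and between 0.131 and 0.736 FPKM in the other lines. Sfrp1 and, in 1 line, Dkk3 were thus the secreted antagonists of these families present at 1 FPKM or more. Fibroblasts are a known source of such antagonists. Of the 12 fibroblast markers, Dcn, Pdgfra, Pdgfrb, Thy1 and Col6a1 were higher in both JNK_KO lines than in both JNK_WT lines. None was lower in both. Among the 7 markers tested the groups did not overlap for 4, beside 35.0% of all genes. Dcn, Pdgfra and Pdgfrb passed the filter through the JNK_KO lines alone, so they could not have overlapped. None of the 7 was called (smallest limma adjusted p = 0.0554, for Dcn). The list of 12 summed to 347, 56.9, 641 and 401 FPKM over the 4 lines, and to 15.9, 9.69, 141 and 243 FPKM without Vim. Col1a1 was under 1 FPKM in all lines, and Lum was listed at 0 in 3 lines and at 0.00840 FPKM in the other. Col1a2 was at 10.3, 0.374, 0.698 and 2.56 FPKM and Postn at 1.32, 2.58, 0.728 and 25.6 FPKM. Their log2 differences were -0.68 and 1.23. Both overlapped, as did Col1a1, Lum, Fap, Col3a1 and Vim. Sfrp2 and Wif1, though under 1 FPKM, were higher in both JNK_KO lines, as were Dcn, Pdgfra, Pdgfrb, Thy1 and Col6a1. The part of fibroblast markers in the values of Sfrp2 and Wif1 was not tested.

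The feedback targets were expressed at low but measurable levels. Axin2, a scaffold of the complex that degrades beta-catenin and a classic target of the pathway, lies on chromosome 11 (108920349 to 108950783, plus strand). Its promoter is shown because Axin2 was the member with the largest difference among the 5 tested. The 250 bases before the RefSeq start (GRCm38.p6, chr11:108920099-108920348, plus strand, 5′ to 3′) read as follows.
Axin2: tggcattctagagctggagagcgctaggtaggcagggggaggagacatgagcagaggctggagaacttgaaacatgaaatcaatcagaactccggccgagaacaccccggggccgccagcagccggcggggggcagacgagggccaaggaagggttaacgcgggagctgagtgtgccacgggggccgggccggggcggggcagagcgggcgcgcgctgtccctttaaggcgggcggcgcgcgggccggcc

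Axin2 was measured at 0.228 and 0.773 FPKM in the JNK_WT lines and at 2.18 and 1.04 FPKM in the JNK_KO lines. Both JNK_KO lines lay above both JNK_WT lines, with a distance of the nearest lines that was smaller than the spread within either group. The means were 0.50 ± 0.385 FPKM (SD, n = 2) and 1.61 ± 0.806 FPKM (SD, n = 2), a ratio of 3.22. The log2 difference was 0.79 (SE 0.40), with a 95% interval of -0.28 to 1.86 and a limma adjusted p of 0.803. Axin2 passed the filter through the JNK_KO lines alone, so its groups could not have overlapped once it was tested, and the missing overlap adds nothing to the difference. With quantile normalization the difference was 0.42 and the groups overlapped. Axin2 stood at percentiles 2.95 to 12.6 of the tested genes, so it was among the genes expressed least in all 4 lines.

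Rnf43 and Znrf3 encode a pair of related ubiquitin ligases at the cell membrane that remove Frizzled receptors. Rnf43 (chromosome 11, 87662722 to 87735539, plus strand) was measured at 5.07 and 1.84 FPKM in JNK_WT and at 2.67 and 3.79 FPKM in JNK_KO. The JNK_KO lines lay between the JNK_WT lines, and the log2 difference was 0.013 (SE 0.49), with a 95% interval of -1.28 to 1.31 and a limma adjusted p of 0.999. Znrf3 (chromosome 11, 5276324 to 5444847, minus strand) was measured at 4.60 and 5.17 FPKM in JNK_WT and at 5.84 and 3.15 FPKM in JNK_KO. Here the JNK_WT lines lay between the JNK_KO lines, with a log2 difference of -0.14 (SE 0.38), a 95% interval of -1.15 to 0.87 and a limma adjusted p of 0.999. These intervals leave room for differences of more than 0.75 in either direction.

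The sum of Rnf43 and Znrf3 was 9.68, 7.01, 8.50 and 6.94 FPKM. Rnf43 made up 52.4%, 26.3%, 31.3% and 54.6% of it. Rnf43 was the more abundant of the pair in JNK_WT replicate 1 and JNK_KO replicate 3, and Znrf3 in the other lines, so the balance did not follow genotype. In every line Axin2 was below Rnf43.

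Tcf7 and Lef1 encode DNA-binding partners of beta-catenin. Tcf7 (chromosome 11, 52252371 to 52283014, minus strand) was measured at 9.31 and 42.4 FPKM in the JNK_WT lines and at 17.6 and 12.8 FPKM in the JNK_KO lines. The JNK_WT lines were the lowest and the highest of the 4, and the groups overlapped. The means were 25.9 ± 23.4 FPKM (SD, n = 2) and 15.2 ± 3.40 FPKM (SD, n = 2), and the log2 difference was -0.40 (SE 0.75), with a 95% interval of -2.40 to 1.59 and a limma adjusted p of 0.999. Without JNK_WT replicate 2 it was 0.63. In every line Tcf7 was above Znrf3, Rnf43 and Axin2.

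Lef1 (chromosome 3, 131110471 to 131224356, plus strand), which is known in mammary epithelium as a WNT target, was measured at 0.0835 and 0.0232 FPKM in JNK_WT and at 0.0696 and 0.0366 FPKM in JNK_KO. It was under 0.1 FPKM in all lines, the groups overlapped, and it was not tested.

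Tcf7 and Lef1 belong to a family of 4 genes with Tcf7l1 and Tcf7l2, and the make-up of the family differed between lines. The summed FPKM of the 4 genes was 29.5 and 68.5 in the JNK_WT lines, 26.2 and 31.7 in the JNK_KO lines. Tcf7 made up 31.6%, 61.9%, 67.1% and 40.3% of it, Tcf7l1 52.5%, 31.3%, 16.6% and 34.8%, and Tcf7l2 15.6%, 6.69%, 15.9% and 24.8%. Lef1 made up at most 0.283%. Tcf7 was the most abundant of the family in 3 lines and Tcf7l1, which is known mainly as a repressor, in JNK_WT replicate 1.

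**Figure D2:**
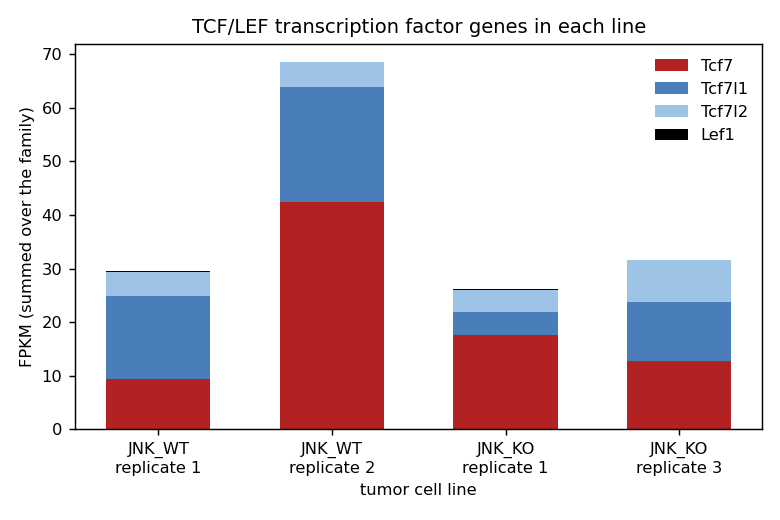
Summed FPKM of the TCF/LEF genes in each tumor cell line, stacked by gene, with 1 bar per library and the axis starting at 0. Tcf7 made up 31.6% to 67.1% of the bars, and Lef1, in black, was at most a thin line at this scale.

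Tcf7l1 was measured at 15.5 and 21.5 FPKM in JNK_WT and at 4.36 and 11.0 FPKM in JNK_KO. Both JNK_KO lines lay below both JNK_WT lines, and the log2 difference was -1.26 (SE 0.49, limma adjusted p = 0.669). The median difference of the 591 tested genes of its chromosome, chromosome 6, was -0.59, and relative to it Tcf7l1 differed by -0.67. Tcf7l2 was measured at 4.61 and 4.58 FPKM in JNK_WT and at 4.17 and 7.87 FPKM in JNK_KO, which overlapped (log2 difference 0.28, SE 0.39).

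Of the 10 members, 4 lie on chromosome 11, whose 1047 tested genes had a median log2 difference of -0.20. Relative to that median, the difference was 0.99 for Axin2, 0.22 for Rnf43, 0.059 for Znrf3 and -0.20 for Tcf7. The sign of Znrf3 turned and the others kept theirs.

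To see whether the promoters of the members held the motif that TCF/LEF proteins recognize, the letters CTTTG followed by a pair of bases that are each A or T were searched on both strands, 4 heptamers in all. The windows were those that RefSeq gives from 250 bases before to 50 bases after a start. Windows were found for 7 members, with 12 windows in all, and were not found for Sfrp1, Dkk3 and Znrf3. A match was present in 1 of the 12, beside 16.9% of the 32851 windows of all genes. It lay upstream of 1 of the 4 Lef1 starts, and that window is shown with the match in capitals, read as the reverse complement of CTTTGTA (250 bases before the start, GRCm38.p6, chr3:131156044-131156293, plus strand, 5′ to 3′).
Lef1: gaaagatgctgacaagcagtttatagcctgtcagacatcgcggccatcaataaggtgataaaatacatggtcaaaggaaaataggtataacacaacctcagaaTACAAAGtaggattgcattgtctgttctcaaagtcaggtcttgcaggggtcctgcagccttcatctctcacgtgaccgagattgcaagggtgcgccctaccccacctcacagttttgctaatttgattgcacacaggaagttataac

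The Axin2 window printed above held no match. A match is a match of letters only, and its absence says only that these letters were not in the window. RefSeq gave several starts for Lef1, Tcf7 and Rnf43, which FPKM per gene cannot separate.

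The genes most alike to the members in their profile over the 4 lines were found by the Euclidean distance between log2(FPKM + 1) values centered on their mean. For Sfrp1 they were Kctd14 (1.26, 18.8, 3.61 and 18.4 FPKM, distance 0.23) and Wnt5b (0.0756, 7.36, 1.24 and 11.6 FPKM, distance 0.37). Wnt5b is a WNT ligand of the kind that mostly acts without beta-catenin. For Tcf7 they were Inpp4b, a lipid phosphatase (0.441, 5.10, 1.61 and 0.941 FPKM, distance 0.0099), and P2ry1, a nucleotide receptor (0.0608, 3.01, 1.02 and 0.344 FPKM, distance 0.17). For Axin2 they were Smc2, a condensin subunit (14.7, 22.2, 37.1 and 22.6 FPKM), and Alg6, an enzyme of glycosylation (5.80, 9.21, 15.1 and 10.6 FPKM), each at a distance of 0.15. For Rnf43 they were the kinase gene Camkk1 and the growth factor gene Fgf2, at distances of 0.072 and 0.085. With 12998 genes and 4 points, close profiles are to be found for any gene.

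**Figure D3:**
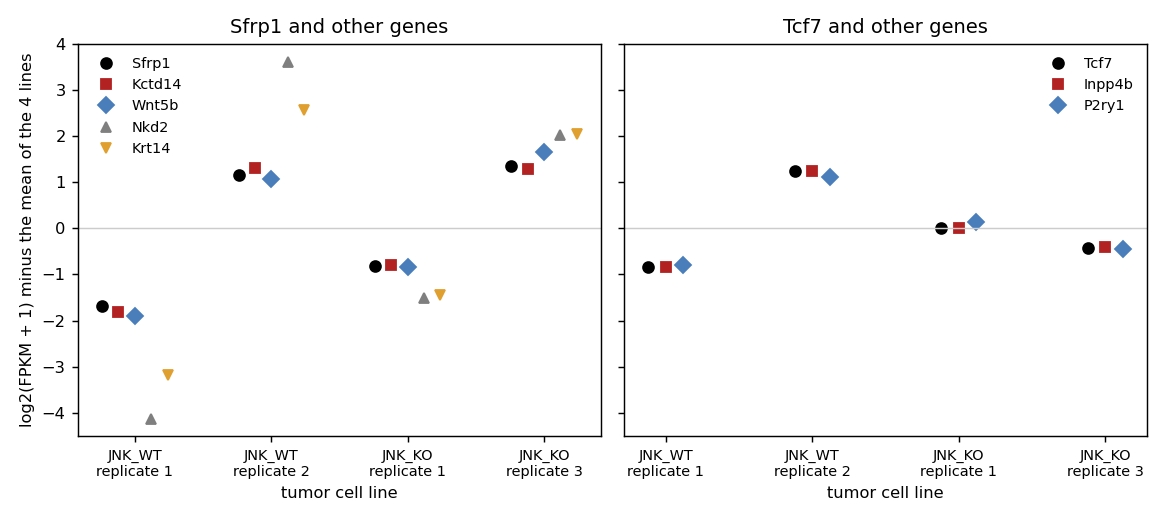
Profiles of Sfrp1 (left) and Tcf7 (right) over the 4 tumor cell lines with the genes most alike in pattern, as log2(FPKM + 1) minus the mean of the 4 lines. Nkd2 and Krt14, added after their values were seen, are high in the same lines as Sfrp1, which was at 28.3 and 32.9 FPKM in its 2 high lines.

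Around the members, 97 further genes of the pathway were examined, of which 62 passed the filter. None of them was called either, and 6 had an unadjusted limma p under 0.05, beside 7.63% of all genes. The groups did not overlap for 23 of the 62 (37.1%), with 8 higher and 15 lower in JNK_KO, against 35.0% of all genes. Of the 8 higher genes, Apcdd1, Rspo1, Wnt6 and Wnt11 passed the filter through the JNK_KO lines alone, so these 4 could not have overlapped. The median log2 difference of the 62 was 0.012, and that of all tested genes was 0.013. The share without overlap and the median were thus close to those of the table as a whole. An absolute log2 difference over 0.75 was found for 14 of the 62 (22.6%), beside 15.7% of all genes. Apcdd1, Rspo1, Wnt6 and Wnt11 were among these 14.

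Among other feedback targets, 6 of 11 passed the filter. Of these 6, Apcdd1 alone had groups that did not overlap, beside 35.0% of all genes. Nkd1 (at most 0.207 FPKM) and Tnfrsf19 (at most 1.75 FPKM) did not pass the filter and were also higher in both JNK_KO lines. Apcdd1 encodes a membrane protein that restrains WNT signaling at the receptor. It was measured at 0.327 and 0.128 FPKM in JNK_WT and at 11.9 and 6.49 FPKM in JNK_KO, the largest difference of any WNT gene tested (log2 difference 3.01, SE 0.40, limma adjusted p = 0.191). Like Axin2 it was higher in JNK_KO and passed the filter through the JNK_KO lines alone. The other tested feedback targets overlapped, and of the 14 other antagonists 4 were tested and all 4 overlapped. Dkkl1 (at most 0.486 FPKM) and Draxin (at most 0.143 FPKM), 2 of these antagonists, did not pass the filter and were higher in both JNK_KO lines.

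R-spondins and their LGR receptors are the ligands and receptors through which RNF43 and ZNRF3 are cleared from the membrane. Rspo1 was measured at 0.0608 and 0.00735 FPKM in JNK_WT and at 1.91 and 1.65 FPKM in JNK_KO (log2 difference 1.43, SE 0.29, limma adjusted p = 0.341). It passed the filter through the JNK_KO lines alone. Lgr6 was measured at 16.8 and 10.4 FPKM in JNK_WT and at 0.899 and 4.45 FPKM in JNK_KO (log2 difference -2.14, SE 0.62, limma adjusted p = 0.498). Rspo1 was thus higher and Lgr6 lower in each JNK_KO line, while Rnf43 and Znrf3 overlapped. Lgr4, the other gene of this list that was tested, overlapped too, with a log2 difference of -0.15. It was at 9.67 and 31.5 FPKM in JNK_WT and at 8.11 and 29.9 FPKM in JNK_KO.

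Of the 16 receptor genes, 12 were tested, and 5 were lower and 1 higher in both JNK_KO lines. No receptor gene was called, and 35.0% of all genes tested had groups that did not overlap. The co-receptor gene Lrp6 was measured at 37.6 and 42.0 FPKM in JNK_WT and at 18.7 and 21.7 FPKM in JNK_KO (log2 difference -0.95, SE 0.24, limma adjusted p = 0.451). It also lies on chromosome 6, and its difference relative to the median of that chromosome was -0.36. Fzd2, Ptk7 and Fzd8 had differences of -0.76, -0.49 and -0.26 (limma adjusted p = 0.777, 0.832 and 0.985).

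Of the 21 genes for WNT ligands and their secretion, 10 were tested, with 3 higher and 4 lower in both JNK_KO lines. None of the 10 was called, and the groups did not overlap for 35.0% of all genes tested. An absolute log2 difference over 0.75 was found for 7 of the 10, with 4 positive and 3 negative, beside 15.7% of all genes. Wnt10a was measured at 30.05 and 28.7 FPKM in JNK_WT and at 16.7 and 5.20 FPKM in JNK_KO, and Wnt9a at 16.0 and 2.22 FPKM against 0.266 and 1.69 FPKM (limma adjusted p = 0.645 and 0.756). Wnt6 was measured at 0.199 and 0.175 FPKM against 2.28 and 1.90 FPKM, and Wnt4, a ligand of the mammary gland that acts downstream of progesterone, at 1.45 and 0.550 FPKM against 4.20 and 2.18 FPKM (limma adjusted p = 0.362 and 0.698). Wnt6 and Wnt11, 2 of the 3 higher genes, passed the filter through the JNK_KO lines alone.

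Of 16 cytoplasmic genes 15 were tested and 0 had an absolute log2 difference over 0.75, beside 15.7% of all genes. Their groups did not overlap for Axin1, Gsk3a and Dvl2, which were lower in JNK_KO at -0.39, -0.19 and -0.14, and for Csnk1a1, which was higher at 0.12. Axin1 encodes a scaffold related to that of Axin2. Its difference had the opposite sign to that of Axin2, and neither gene was called (limma adjusted p = 0.904 and 0.803). Of the 14 other nuclear factors 13 were tested and 1, Tcf7l1, was over 0.75. Beside Tcf7l1 the groups did not overlap for Ctbp2 (-0.53) and Pygo2 (0.31). For both lists, the share over all genes tested was 35.0%.

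**Figure D4:**
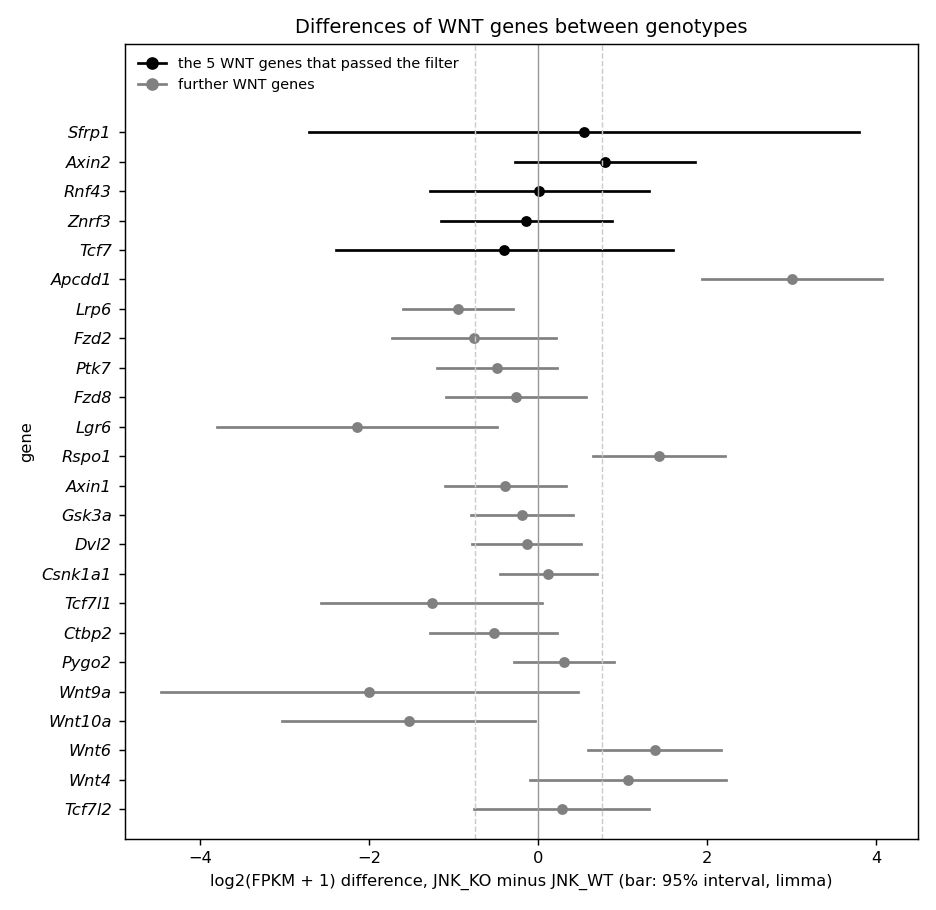
Differences of JNK_KO minus JNK_WT in log2(FPKM + 1) for the 5 members that passed the filter (black) and the further WNT genes named in the text (gray), with 95% intervals from limma. The intervals of all 5 members include 0, from Rnf43 at 0.013 to Axin2 at 0.79, and no gene plotted passed the adjusted test.

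Of the 10 leukocyte markers in the table, 8 were under 1 FPKM in all lines, and Ptprc, the defining marker, was at most 0.0134 FPKM. The macrophage markers Cd68 (20.0, 3.15, 2.65 and 8.43 FPKM) and Csf1r (1.82, 0.448, 0.312 and 1.23 FPKM) passed the filter, and their groups overlapped. Both were highest in JNK_WT replicate 1, the line with the most Dkk3, and their part in that value was not tested. All 6 endothelial and all 5 adipocyte markers were under 1 FPKM in every line.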

How the data were processed

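Reads were single-end and short. According to the study's methods, the authors trimmed them with Trimmomatic and aligned them to mm10. To compare these lines with other cell groups, they also sampled reads with seqtk. The methods do not say whether the deposited values rest on sampled reads. The submitters' processing notes name TopHat2 2.0.14, Bowtie2, Cufflinks 2.2.1, Cuffdiff and GRCm38. The deposited values were FPKM from Cufflinks, 1 per gene and library, not pooled. The gene annotation is not given in the sources used here. Cufflinks shares reads among overlapping transcripts by estimation, so the values are estimates and not counts.

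Of 38741 rows, 27 with dates for symbols and 1 without a value were left out. Genes at 1 FPKM or more in at least 2 libraries were tested on log2(FPKM + 1), which understates changes of low genes, with limma 3.58.1 under R 4.3.3 (lmFit, then eBayes with trend = TRUE). The test was two-sided, and p-values were adjusted by the method of Benjamini and Hochberg across the 12998 genes. The call needed an adjusted p under 0.05 and an absolute log2 difference over 0.75, the thresholds the study states. The test was first tried on simulated data. Each line was a replicate, and p-values measure only the spread between lines.

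The members and gene lists were chosen with earlier results of these data known. Named were all members, the targeted genes, Tcf7l1 and Tcf7l2, up to 4 non-overlapping genes per further list by size of difference, and the 2 genes most alike to each of the 4 tested members that ranged most widely. Family shares were added after the values were seen. Positions came from GENCODE M21 and promoters from RefSeq (GRCm38.p6). Summaries and plots used Python 3.11.15, pandas 2.3.3 and matplotlib 3.10.9.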

Additional observations from a re-analysis of the deposited data

How the results depend on the processing

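No member was called under any alternative, whether another pseudocount, filter, scaling, variance model or threshold, or without 1 line (0 to 0), although up to 14 genes in the table were called at a pseudocount of 0.5 or without the intensity trend. The count of tested members whose groups did not overlap was 3 without a filter (of 10 genes), 0 at a mean FPKM of at least 5 (2 members tested) and 0 with quantile normalization, beside 32.4%, 34.0% and 36.3% of all genes. It was 2 to 4 of 5 without 1 line, beside 61.0% to 72.1% of all genes. The count over 0.75 was 2 without a filter (of 10 genes), 0 at the filter of 5 and 0 with quantile normalization. The shares of all genes were 10.7%, 15.3% and 16.1%. Without 1 line the count was 1 to 2, beside 18.4% to 24.2% of all genes. At a threshold of 1 it was 0. The median difference ranged from -0.21 to 0.63 without 1 line, 0.63 being the value without JNK_WT replicate 2. The sign of Rnf43 turned with upper quartile scaling (-0.0015) and quantile normalization (-0.13), and that of Znrf3 relative to its chromosome (0.059). Without 1 line, differences ranged from -0.88 to 1.96 for Sfrp1, which was -0.88 without JNK_WT replicate 1 and -0.55 without JNK_KO replicate 3. They ranged from -0.53 to 0.56 for Rnf43, -0.50 to 0.22 for Znrf3 and -1.44 to 0.63 for Tcf7, all of which crossed 0, and from 0.47 to 1.11 for Axin2. The Axin2 difference was 1.59 at a pseudocount of 0.1 and 1.08 at 0.5. In fits without a line, the lone line of its genotype was assumed to vary like the other genotype. No paired analysis was possible because the genotypes share only replicate number 1, which the labels tie to nothing. FPKM without read counts allowed no intervals for single libraries, and at under 1 FPKM differences between lines were not tested.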

Other observations

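Several further WNT genes, chosen after their values were seen, differed more between lines of 1 genotype than between genotypes. Nkd2, a feedback antagonist that acts on Dishevelled, was measured at 0.428 and 305 FPKM in the JNK_WT lines, numbered 1 and 2, and at 7.81 and 100.2 FPKM in the JNK_KO lines, numbered 1 and 3. Sostdc1, a secreted antagonist of WNT and BMP ligands, was listed at 0 in JNK_WT replicate 1 and measured at 29.5 FPKM in JNK_WT replicate 2, with 0.0662 and 3.43 FPKM in the JNK_KO lines. Lgr4 was measured at 9.67 and 31.5 FPKM in JNK_WT and at 8.11 and 29.9 FPKM in JNK_KO, and Ctnnb1, which encodes beta-catenin, at 414 and 694 FPKM against 408 and 995 FPKM. All 4 genes were higher in JNK_WT replicate 2 and JNK_KO replicate 3 than in the other lines, as were Sfrp1 and Krt14.

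Wnt7a ran the other way within JNK_WT, at 118 FPKM in replicate 1 and 3.10 FPKM in replicate 2, with 14.4 and 6.68 FPKM in JNK_KO. Sp5, a direct target of beta-catenin, was measured at 4.52 FPKM in JNK_KO replicate 1, the line with the most Axin2, and at 0.804 and 0.199 FPKM in the JNK_WT lines and 0.177 FPKM in JNK_KO replicate 3. Notum, which encodes an enzyme that inactivates WNT ligands, was measured at 7.83 and 22.3 FPKM in JNK_WT and at 15.7 and 9.43 FPKM in JNK_KO. Its order over the lines was that of Tcf7, with JNK_WT replicate 2 highest and JNK_WT replicate 1 lowest, and the JNK_KO lines lay between the JNK_WT lines for both.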
